A study of Mus musculus with 2 samples.

Results

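The neuropeptide Y family was followed here through its 3 mouse genes, Ppy, Pyy and Npy, taken by symbol from the 33038 genes listed in either of 2 single-cell libraries of islet cells. All 3 were listed in both libraries. The cells came from control islets of C57BL/6J mice aged 8 weeks, which the methods of the study describe as male. Each library was made by RevGel-seq, in which each cell is tied to a barcoded bead, kept apart from the others in a gel and lysed there. The methods call the libraries technical replicates of the same islet preparation, so the spread between them is technical and says nothing of how mice differ.

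Peptides of this family share a hairpin-like fold and an amidated carboxyl end, and they act through a small set of G protein-coupled Y receptors. Ppy encodes pancreatic polypeptide, the hormone that defines the gamma (PP) cell of the islet. Pyy encodes peptide YY, best known from enteroendocrine cells of the gut and also made in islets. Npy encodes neuropeptide Y, a transmitter of sympathetic and other neurons. Each is cut from a precursor by prohormone convertases, trimmed by carboxypeptidase E and amidated by Pam, the amidating enzyme.

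Ppy (ENSMUSG00000017316) lies on chromosome 11 at 102099930 to 102101319 on the minus strand of GRCm38, with coordinates from GENCODE M21. Pyy (ENSMUSG00000017311) follows on the same strand at 102106676 to 102107832. The gap between them measured 5356 bases, and 0 other annotated genes lay in it or overlapped either gene. Npy (ENSMUSG00000029819) lies on the plus strand of chromosome 6 at 49822710 to 49829507. In each gene the first listed transcript had 4 exons, and the mature peptide of 36 codons was split over exons 2 and 3. Those 108 coding bases are shown because they define the family, with capitals at the 49 bases (45.4%) that all 3 genes share.

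Ppy: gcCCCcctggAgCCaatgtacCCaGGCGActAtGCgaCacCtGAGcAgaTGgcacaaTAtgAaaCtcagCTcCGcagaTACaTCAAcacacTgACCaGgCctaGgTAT
Pyy: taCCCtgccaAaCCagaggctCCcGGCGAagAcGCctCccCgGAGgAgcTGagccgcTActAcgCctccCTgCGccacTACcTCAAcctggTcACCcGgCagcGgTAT
Npy: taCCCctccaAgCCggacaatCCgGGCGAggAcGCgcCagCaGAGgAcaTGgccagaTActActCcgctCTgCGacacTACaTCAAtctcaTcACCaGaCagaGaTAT

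Pyy and Npy were the closest pair, with 76 of 108 bases (70.4%) and 24 of 36 encoded residues (66.7%) the same. Ppy matched Npy at 61 bases (56.5%) and Pyy at 58 (53.7%). The 150 bases before the annotated starts of the neighbours Ppy and Pyy are also shown, since both genes were high in the same cells. They come from RefSeq on GRCm38.p6, at chr11:102101320-102101469 and chr11:102107833-102107982, and all 3 genes had an entry. Capitals mark TATAA, searched on both strands.

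Ppy: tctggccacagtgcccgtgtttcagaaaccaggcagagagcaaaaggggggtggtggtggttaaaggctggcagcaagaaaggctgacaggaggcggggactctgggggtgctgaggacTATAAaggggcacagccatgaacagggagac
Pyy: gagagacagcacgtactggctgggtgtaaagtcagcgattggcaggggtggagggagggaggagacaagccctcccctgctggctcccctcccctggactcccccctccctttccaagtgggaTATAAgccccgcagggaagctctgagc

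TATAA began 31 bases before the start of Ppy and 27 before the start of Pyy. RefSeq lists another Pyy start 56 bases downstream, from which the same TATAA began 83 bases before. It was not found in the same window of Npy, and TAATTA, also searched on both strands, was found in 0 of the 3 windows. Among 32851 promoter windows of 150 bases, 14.2% held TATAA and 2.73% held TAATTA. Such a match is a description of the letters and not a tested binding site.

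Library 1 held 735 cells with 15931154 transcripts counted by unique molecular identifiers (UMIs), and library 2 held 748 cells with 17440292. They shared 0 barcodes. A level below is the percentage of a cell's UMIs that came from the gene. A UMI stands for 1 captured poly(A) transcript, so levels of different genes can be set side by side without a correction for length. Cells were grouped by which of insulin (Ins1 and Ins2 together), Gcg (glucagon) and Sst (somatostatin) reached 1% of UMIs. Insulin only cells numbered 194 in library 1 and 198 in library 2, Gcg only cells 247 and 260, and Sst only cells 112 and 94. Cells with more than 1 of the hormones numbered 37 and 36. The remaining cells were split by 8 genes of secretory granules, such as Chga and Pcsk2, against 36 genes of endothelial, immune, stromal, ductal, Schwann and neuronal cells. This gave 59 and 74 granule-marked cells and 86 and 86 non-endocrine cells, with median granule sums of 1.69% and 1.67% against 0.0312% and 0.0287%. No member of the family was a grouping gene. Their UMIs do count in the total from which the 1% is taken, so high Ppy lowers the hormone percentages. In 4 of the 305 cells split in this way, the 2 sums lay within 2-fold of each other.

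Ppy was the most abundant of the 3 genes. It supplied 5.71% of all UMIs in library 1 and 7.33% in library 2, against 0.944% and 0.893% for Pyy and 0.00114% and 0.00431% for Npy. A UMI of Ppy was present in all 735 and 748 cells, non-endocrine cells included, so the presence of a UMI says nothing about expression. The background was therefore taken from non-endocrine cells. Their median Ppy level was 0.0686% and 0.0623%, the highest was 0.203% and 0.373%, and 0 of 86 reached 1% in either library, which allows a share of up to 3.49%. Pyy in the same cells had medians of 0.0115% and 0.00895%.

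Granule-marked cells had by far the highest Ppy, with medians of 35.8% of UMIs in each library. In library 1 their levels ran from 0.0531% to 51.7%, and in library 2 from 0.0377% to 45.2%. Ppy reached 1% in 54 of 59 (91.5%, 95% exact interval 81.3% to 97.2%) and in 68 of 74 cells (91.9%, 83.2% to 97.0%). Etv1, Abcc9, Meis2, Fxyd6 and Tspan8, taken as markers of gamma cells besides Ppy, summed to medians of 0.132% and 0.137% there. The same sum was 0.174% and 0.180% in Sst only cells and 0.0910% and 0.0890% in Gcg only cells.

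Sst only cells came next, with median Ppy levels of 1.53% and 2.36%. Ppy reached 1% in 77 of 112 (68.8%, 59.3% to 77.2%) and in 71 of 94 (75.5%, 65.6% to 83.8%), or 72.1% ± 4.80 (SD, n = 2). Most of these cells held between 1% and 10% Ppy (73 and 63 cells), 5 and 4 cells were under 0.1%, and 4 and 8 reached 10%. The few at 10% or above were deep, with median UMI counts of 45719 and 37690 against 13123 and 13692 in Sst only cells under 1% Ppy. Their median Sst was 2.69% and 3.03%, against 9.07% and 9.12%. Scrublet called 1 and 0 of them doublets, and the part of barcodes with more than 1 cell was not tested further.

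Gcg only cells had low median Ppy, 0.198% and 0.190%, with a range from 0.0274% to 34.3% in library 1 and from 0.00781% to 35.6% in library 2. Ppy reached 1% in 65 of 247 (26.3%, 20.9% to 32.3%) and in 86 of 260 (33.1%, 27.4% to 39.2%), or 29.7% ± 4.78. At the other end, 71 and 84 cells were under 0.1%, below the highest non-endocrine values. Gcg only cells with 10% Ppy or more, 18 and 26 of them, had median Gcg of 10.8% and 5.77%, against 23.8% and 24.6% in those under 1% Ppy. They were also deeper, with median UMI counts of 27839.5 and 22448.5 against 16413.5 and 19534 in Gcg only cells under 1% Ppy. Scrublet called 0 and 1 of those with 10% or more doublets. The part of barcodes with more than 1 cell among them was not tested further.

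Insulin only cells had median Ppy of 0.0670% and 0.0704%, 0.977 and 1.13 times the non-endocrine medians of the same libraries. A minority stood above this background. Ppy reached 1% in 12 of 194 (6.19%, 3.24% to 10.6%) and in 8 of 198 (4.04%, 1.76% to 7.81%). These had median insulin of 15.4% and 14.2%, against 38.7% and 41.5% in the others, and median Pyy of 0.711% and 0.450%, against 0.0107% and 0.0108%. The order of the Ppy medians, granule-marked, Sst only, Gcg only and then insulin only, was the same in both libraries. Insulin only and non-endocrine cells differed by no more than 1.13-fold on totals that include insulin. Leaving insulin, Gcg and Sst out of the total raises the median Ppy of insulin only cells by construction. No value of non-endocrine cells on that total is given here for comparison.

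**Figure D1:**
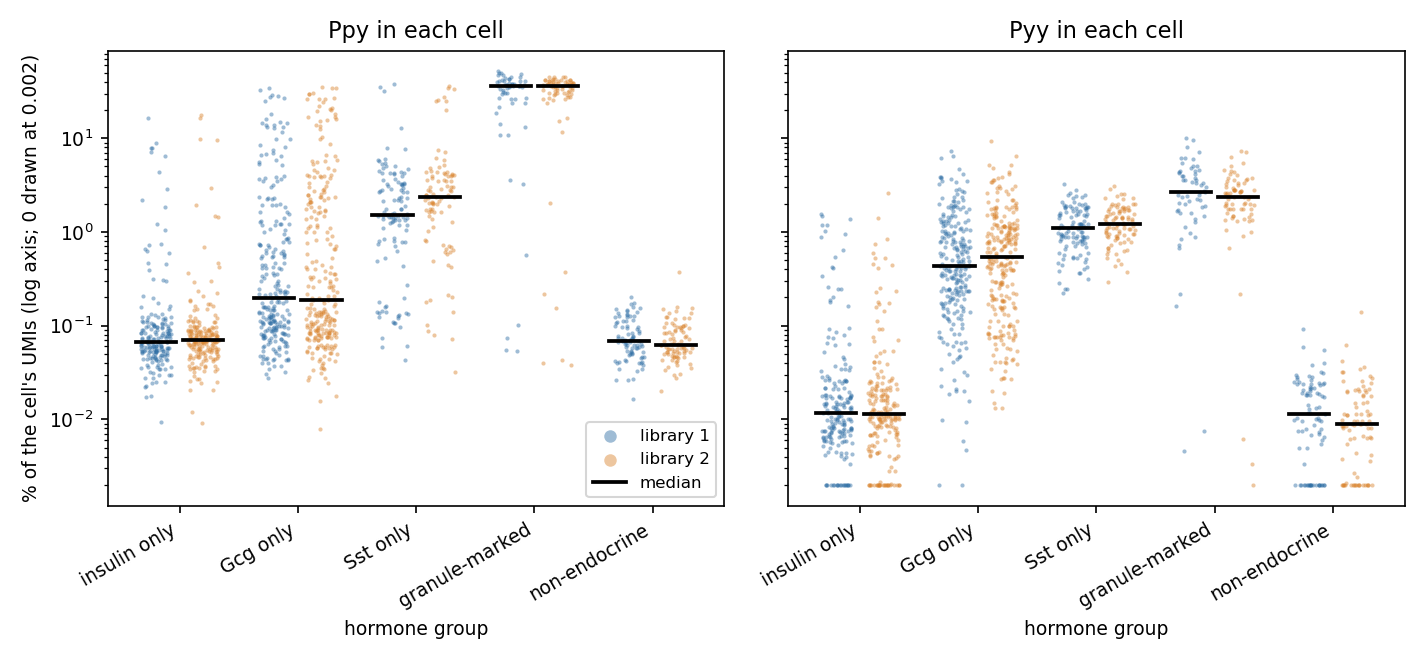
Level of Ppy (left) and Pyy (right) in each cell, as a percentage of its UMIs on a log axis, by hormone group, with library 1 in blue, library 2 in orange and a black bar at the median of each library. Ppy medians fall from 35.8% in granule-marked cells to 0.0670% and 0.0704% in insulin only cells, which overlap with non-endocrine cells. Pyy in Sst only cells has medians of 1.09% and 1.22% and ranges of 0.225% to 3.28% and 0.295% to 3.12%.

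The medians of Pyy fell in the same order as those of Ppy, but the spread within groups was another. Sst only cells held it without exception, with 112 of 112 and 94 of 94 cells at 0.1% or above, medians of 1.09% and 1.22%, and a range of 0.225% to 3.28% and 0.295% to 3.12%. Gcg only cells had medians of 0.428% and 0.534%, and 211 of 247 (85.4%, 80.4% to 89.6%) and 212 of 260 (81.5%, 76.3% to 86.1%) reached 0.1%. Granule-marked cells had the highest medians, 2.69% and 2.36%. In insulin only cells the medians were 0.0118% and 0.0113%, 1.03 and 1.26 times the non-endocrine medians on totals that include insulin. Leaving the hormones out of the total raises the median Pyy of insulin only cells by construction too. In this group 20 of 194 and 19 of 198 cells reached 0.1%, against 0 and 1 of 86 non-endocrine cells.

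The balance of both genes changed from group to group. UMIs of Ppy outnumbered those of Pyy 11.3-fold ± 2.55 (SD, n = 2) in granule-marked cells, 4.32-fold ± 0.826 in Sst only cells and 3.48-fold ± 0.342 in Gcg only cells. In Gcg only cells this ratio was carried by few cells: Pyy exceeded Ppy in 129 of 247 (52.2%) and 124 of 260 (47.7%), and the median of Pyy was above that of Ppy in both libraries. In Sst only cells Pyy exceeded Ppy in 33.9% and 24.5%, in granule-marked cells in 5.08% and 5.41%, and in non-endocrine cells in 0 of 172. The ratio of Ppy to Pyy UMIs in insulin only cells, 6.25 and 6.55, was near that of non-endocrine cells, 5.65 and 6.36. The summed UMIs themselves were not at the non-endocrine level, with rates 7.46 times as high for Ppy and 7.02 times for Pyy. Few cells carried much of these sums: the top 3 cells for each gene held 48.4% of Ppy and 29.5% of Pyy UMIs.

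Differences between groups were tested on UMIs summed per group and library with edgeR's quasi-likelihood test, with Benjamini-Hochberg adjustment over 14783 genes in each of 7 contrasts. All 3 members passed the filter on low counts. The p-values measure the spread between technical replicates only. Summed Ppy was 4.70% and 6.99% of UMIs in Sst only cells, 3.13% and 3.37% in Gcg only cells, 0.508% and 0.483% in insulin only cells, 33.3% and 31.3% in granule-marked cells and 0.0689% and 0.0646% in non-endocrine cells. Summed Pyy was 1.26% and 1.43%, 0.969% and 0.907%, 0.0814% and 0.0738%, 3.52% and 2.40%, and 0.0122% and 0.0102% in the same order. Among the groups just given, the libraries of the insulin only and non-endocrine groups lay apart from those of every other group for both genes.

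Against insulin only cells, both hormones were higher in Sst only and in Gcg only cells. In Sst only cells the log2 fold change was 2.92 ± 0.181 (SE, adjusted p = 1.63e-08) for Ppy and 3.47 ± 0.254 (adjusted p = 1.01e-07) for Pyy. All 3 members were called in this contrast, in which 18.2% of genes were, but Npy was lower in Sst only cells (-6.07). In Gcg only cells the log2 fold change was 2.37 ± 0.177 (adjusted p = 6.88e-08) for Ppy and 3.25 ± 0.251 (adjusted p = 9.47e-08) for Pyy. Again all 3 members were called, against 24.3% of genes, and Npy was lower in Gcg only cells (-6.75). Both Npy calls rest on the few insulin only cells described below. These differences of Ppy moved with few cells. Without called doublets they were 3.55 for Sst only and 2.95 for Gcg only cells, and without the 3 cells of each sum with most Ppy they were 3.53 and 3.38.

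Between Sst only and Gcg only cells, where 15.1% of genes were called, 1 of the 3 members was called. Ppy was higher in Sst only cells by 0.55 ± 0.169 on the log2 scale (adjusted p = 0.0369), and Pyy differed by 0.22 ± 0.230 (adjusted p = 0.619). The Ppy call was not stable. The difference was 0.27 without library 2 and 0.79 without library 1, both with no test. It was 0.16 (adjusted p = 0.821) without the 3 cells of each sum with most Ppy and 0.59 (adjusted p = 0.0535) with DESeq2.

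Against non-endocrine cells, Ppy and Pyy were higher in each of the other groups tested. Insulin only cells exceeded them by 3.51 ± 0.187 for Ppy and 3.41 ± 0.262 for Pyy (adjusted p = 3.38e-10 and 2.14e-08), with 3 of 3 members and 60.6% of genes called. This difference is in the sums and not in the medians of percentages of all UMIs. Of the 392 insulin only cells, 3 held 48.4% of the group's Ppy UMIs, 1 in library 1 and 2 in library 2. They were those with Ppy at 10% or above, and Scrublet called 1 of 1 and 1 of 2 of them doublets. Without called doublets the log2 fold change of Ppy was 2.86, and without the 3 cells of each sum with most Ppy it was 2.15 (adjusted p = 5.03e-10 and 4.62e-05). Gcg only cells exceeded non-endocrine cells by 5.88 ± 0.209 and 6.67 ± 0.299, with 2 of 3 members and 59.7% of genes called. Sst only cells exceeded them by 6.43 ± 0.214 and 6.89 ± 0.302, with 2 of 3 members and 58.6% called. Granule-marked cells exceeded them by 9.34 ± 0.242 for Ppy and 8.48 ± 0.322 for Pyy, with 3 of 3 members and 56.2% of genes called. Since more than 56% of genes were called in these contrasts, the call alone does not set the members apart.

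**Figure D2:**
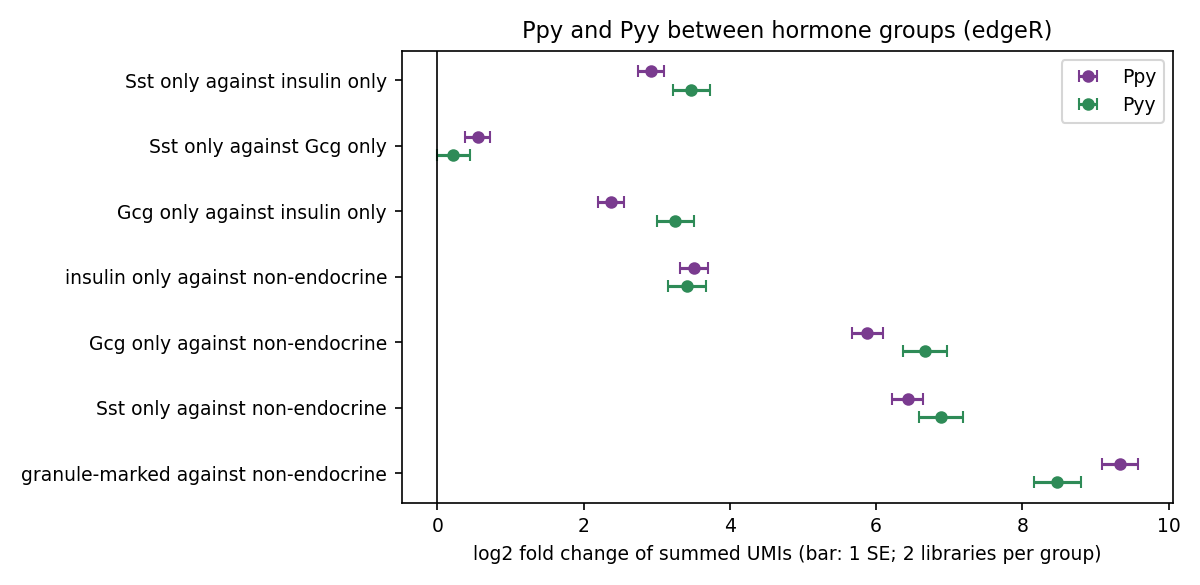
Log2 fold change of summed Ppy (purple) and Pyy (green) for the 7 contrasts between hormone groups, from edgeR, with bars of 1 SE and 2 libraries per group. Ppy has the larger difference in granule-marked against non-endocrine cells, 9.34 against 8.48, and the smaller in Gcg only against insulin only cells, 2.37 against 3.25.

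Ppy and Pyy were present together in many cells. At a level of 0.1% for both, 373 of 735 cells (50.7%) in library 1 and 371 of 748 (49.6%) in library 2 held both. These were 84.2% and 87.1% of the cells with Ppy and 85.4% and 85.7% of those with Pyy. Over all cells, 443 and 426 reached 0.1% Ppy, and 437 and 433 reached 0.1% Pyy. For Ppy this level lies within the background: 22 and 16 of 86 non-endocrine cells reached it, against 0 and 1 for Pyy. At 1%, 147 and 176 cells held both. Of the cells with Ppy at 1%, 66.8% and 69.6% also had Pyy at 1%, and of those with Pyy at 1%, 77.4% and 83.0% also had Ppy at 1%.

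Within groups the relation of both genes differed in form. Correlations are across cells of 1 library, which share its preparation, free RNA and depth, and are given on log2(UMIs per 10000 + 1) as a description. In Gcg only cells, Pearson's r of Ppy and Pyy was 0.64 (n = 247) and 0.72 (n = 260), with Spearman's rho of 0.64 and 0.74. After each cell was thinned to 4000 UMIs, r was 0.63 and 0.68. In Sst only cells r was 0.071 (n = 112) and 0.25 (n = 94), and Pyy was high at every level of Ppy. Its median was 1.0998% and 1.205% in Sst only cells with Ppy at 1% or above and 0.927% and 1.23% in those below. The 5 and 4 Sst only cells with Ppy under 0.1% had median Pyy of 1.196% and 1.44%. The 4 and 8 deep cells with Ppy at 10% or above had higher median Pyy, 2.11% and 2.32%.

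Gcg only cells showed a graded pattern from low to high Ppy. Their median Pyy was 0.233% and 0.140% where Ppy was under 0.1%, 1.53% and 1.204% where Ppy reached 1%, and 2.56% and 2.63% where Ppy reached 10%. The part of barcodes with more than 1 cell in this pattern was not tested. In granule-marked cells r was 0.57 (n = 59) and 0.76 (n = 74), and Spearman's rho was 0.26 and 0.30. In insulin only cells r was 0.73 (n = 194) and 0.67 (n = 198), and rho was 0.34 and 0.35, so the few cells with high values carried much of r.

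**Figure D3:**
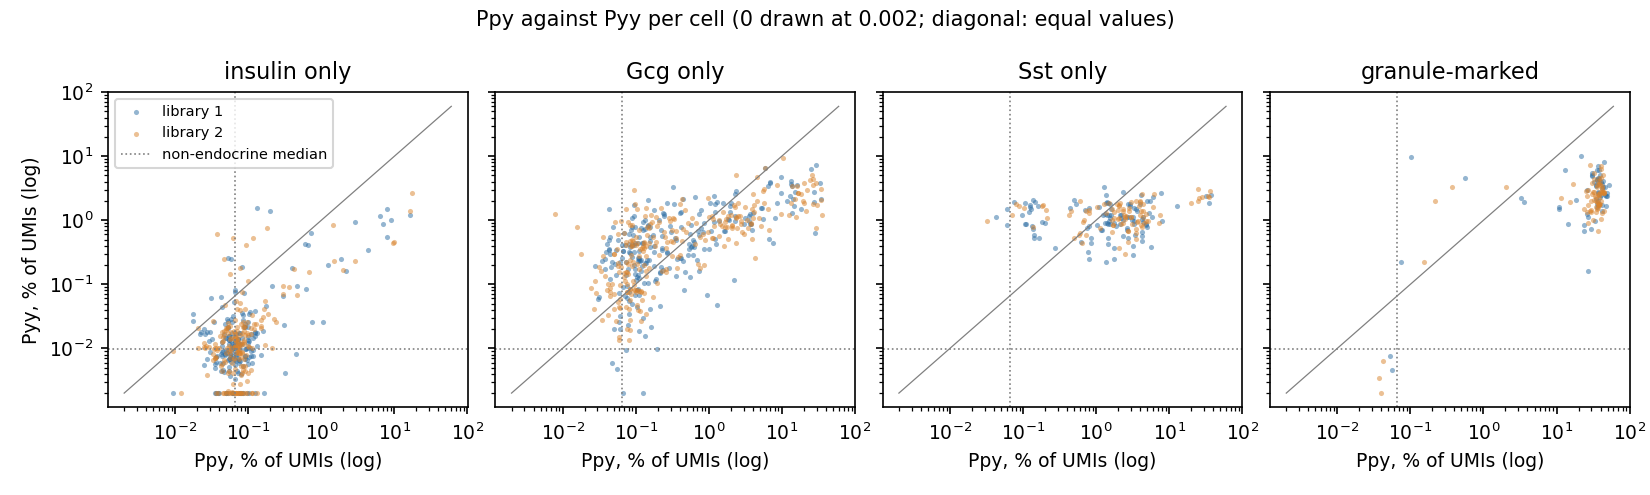
Ppy (horizontal) against Pyy (vertical) in each cell of 4 hormone groups, both as a percentage of UMIs on log axes, with library 1 in blue, library 2 in orange, dotted lines at the medians of non-endocrine cells and a diagonal of equal values. Gcg only cells rise along a slope (r of 0.64 and 0.72), while most Sst only cells lie in a flat band of Pyy (r of 0.071 and 0.25).

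Ppy was lower where the other hormone was higher. Spearman's rho of Ppy with Gcg in Gcg only cells was -0.28 and -0.46, and that of Ppy with Sst in Sst only cells was -0.27 and -0.36. A cell's percentages share a total, so a rise of Ppy lowers the rest. With Ppy and the other hormones taken out of the denominator, rho was -0.17 and -0.37 with Gcg and -0.20 and -0.26 with Sst.

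Cells with more than 1 hormone also held the peptides. In the 19 and 17 cells with insulin and Sst, median Ppy was 0.637% and 1.06% and median Pyy 0.450% and 0.373%, and 19 of 19 and 17 of 17 had Pyy at 0.1%. In the 12 and 17 cells with Gcg and Sst, median Ppy was 0.672% and 1.42% and median Pyy 0.833% and 0.619%. The 6 and 2 cells with insulin and Gcg had median Ppy of 1.33% and 0.209%. Scrublet called 6 of the 73 cells in these groups doublets, and the part of barcodes with more than 1 cell in their levels was not tested.

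Granule-marked cells with Ppy under 1% numbered 5 of 59 and 6 of 74, and were not alike. Scrublet called 1 of the 5 and 1 of the 6 doublets. In 4 of them, described after their values were seen, Pyy stood far above Ppy, and both called doublets were among these 4. These held 9.55% Pyy beside 0.101% Ppy and 4.48% beside 0.563% in library 1, and 1.96% beside 0.220% and 3.36% beside 0.372% in library 2. Insulin, Gcg and Sst were each at or below 0.319% there. Another 3 cells carried 1004 to 1417 UMIs of granule genes, with Ppy at 0.0400% to 0.0552% and Pyy at or below 0.00758%, within the non-endocrine ranges.

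Npy was rare. Its 932 UMIs lay in 19 of 1483 cells, 7 in library 1 and 12 in library 2, and 6 cells with at least 10 UMIs held 98.1% of them. The other 13 cells had 1 to 3 UMIs. Those 6 cells fell into 2 kinds, and neither showed Ppy or Pyy above the non-endocrine range.

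The first kind was a pair of granule-marked cells of library 2, with 428 and 236 Npy UMIs. Npy was 0.241% (95% exact interval 0.219% to 0.265%) and 0.245% (0.215% to 0.279%) of their UMIs. They held 71.2% of all Npy UMIs. These cells had 177513 and 96154 UMIs, the largest and the 8th largest totals of 748. Their UMIs of granule genes, 1164 and 558, were within 2-fold of those of non-endocrine genes, 877 and 460, so their place among granule-marked cells rests on a narrow margin. They carried Prph and Tubb3, genes of the neuronal cytoskeleton, with 348 and 164 UMIs of Prph and 458 and 228 of Tubb3. In the remaining 1481 cells Prph had 8 UMIs and Tubb3 had 127. Nos1, Vip and Stmn2, which encode a nitric oxide synthase, a neuropeptide and a neuronal tubulin-binding protein, were looked up after the values were seen. They had 1063, 910 and 1099 UMIs in the pair and 16, 15 and 263 in all other cells. The profiles of the pair had a Pearson r of 0.907 over 13282 genes, and their barcodes differed at 10 of 12 positions. Whether they are separate cells was not tested.

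The other 4 cells with at least 10 Npy UMIs were insulin only cells, 2 in each library. They held 151 and 21 Npy UMIs in library 1 and 63 and 15 in library 2, or 0.332% (0.282% to 0.390%), 0.103%, 0.178% and 0.0428% of UMIs. Insulin was 45.4%, 42.3%, 46.1% and 39.6% of their UMIs. Ppy was between 0.0490% and 0.0799% in them and Pyy at or below 0.0176%. Prph and Tubb3 were at 0 UMIs in all 4. At 0.1% of UMIs for both genes, no cell held Npy together with Ppy or Pyy. Only 5 of the 1483 cells reached 0.1% Npy, while 869 reached 0.1% Ppy and 870 reached 0.1% Pyy. At 0.05%, 2 of 5 cells with Npy also had Ppy, a level that 75% of non-endocrine cells reached.

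**Figure D4:**
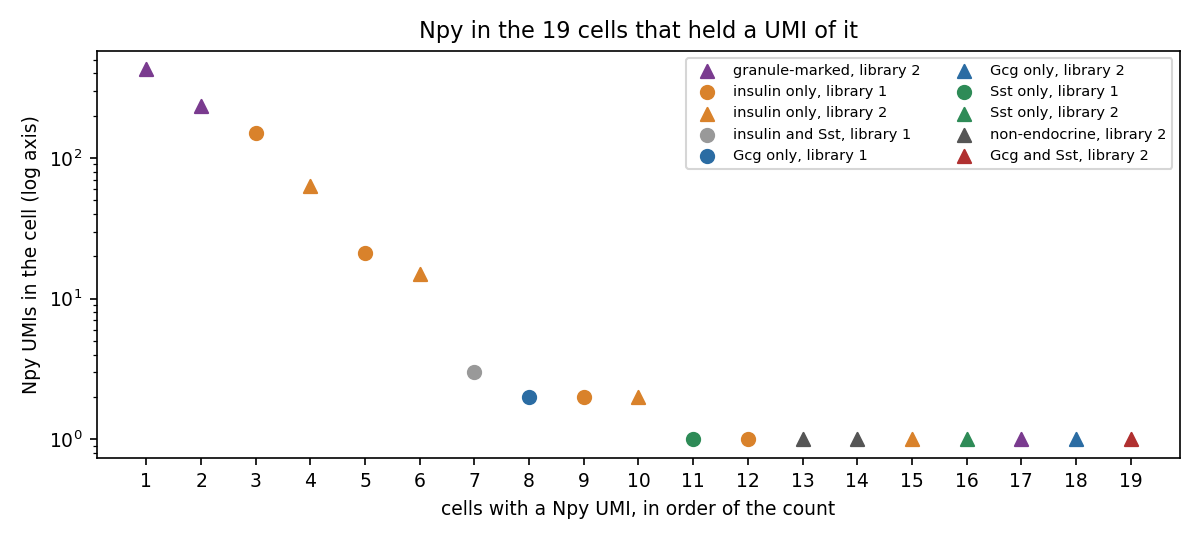
Npy UMIs, on a log axis, in each of the 19 cells that held any, in order of the count, with circles for library 1, triangles for library 2 and colours for hormone groups. A pair of granule-marked cells of library 2 with 428 and 236 UMIs and 4 insulin only cells with 15 to 151 stand above 13 cells with 1 to 3.

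Summed Npy was called in 4 contrasts, each of which rests on these cells. Insulin only cells had 175 and 81 UMIs, Gcg only cells 2 and 1, Sst only cells 1 and 1, and non-endocrine cells 0 and 2. The adjusted p from edgeR was 0.00609 for Gcg only against insulin only cells, 0.0383 for Sst only against insulin only cells and 0.0135 for insulin only against non-endocrine cells. The rate of Npy UMIs in insulin only cells was 47.9 times that of non-endocrine cells, with a 95% interval of 13.1 to 397 that covers counting error only. Of the insulin only Npy UMIs, 91.8% came from 3 cells. For Sst only against insulin only cells, the adjusted p was 0.0667 with DESeq2. Granule-marked cells had 0 and 665 UMIs, 664 of them in the pair described above. The difference from non-endocrine cells (adjusted p = 0.00107) turned to -0.88 on the log2 scale (adjusted p = 0.685) without the pair.

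Receptors of the family were close to absent in these counts. Npy1r had 11 and 27 UMIs, Npy2r 0 and 1, Npy4r 0 and 5 and Npy5r 0 and 4, and Npy6r was listed in neither library. Insulin only and Sst only cells held 0 UMIs of all of them, and Gcg only cells held 2 of Npy1r. The pair of cells with most Npy held 22 of the 38 Npy1r UMIs and all of those of Npy4r and Npy5r. Of the 5 receptors, 1 (Npy1r) passed the filter on low counts, and it was called in 0 of the 3 contrasts between hormone groups (edgeR, adjusted p of 1.00, 0.742 and 0.607), which compared 0 UMIs with 0 or with 2. Non-endocrine cells held 11 and 3 Npy1r UMIs, and Npy1r was called lower than there in insulin only and Gcg only cells (adjusted p = 0.0274 and 0.0416) and not in Sst only cells (adjusted p = 0.0553).

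Genes that make or break down the peptides were tested as a list of 8 between the hormone groups, and all 8 passed the filter. Against insulin only cells, 4 were higher and 2 lower in Gcg only cells, where 24.3% of all genes were called, with a median log2 fold change of 0.83 against -0.0098 over all genes. Pcsk1, prohormone convertase 1/3, had 447 and 465 normalised counts per 1000000 (CPM) in insulin only cells and 3.47 and 1.60 in Gcg only cells (log2 fold change -7.49 ± 0.275, adjusted p = 1.57e-11). Pcsk2, prohormone convertase 2, went the other way, with 3961 and 4064 CPM in insulin only cells and 7808 and 7535 in Gcg only cells (0.93 ± 0.0995, adjusted p = 3.52e-06). Pcsk1n, Scg5 and Pam were also higher in Gcg only cells, by 0.92, 0.94 and 0.74. Dpp4, a peptidase that trims peptide YY and neuropeptide Y, was lower there by 0.67 (adjusted p = 0.0290). Mme, the gene of neprilysin, another peptidase, had 1 UMI in each library of Gcg only cells and 0 in insulin only and Sst only cells, and was not called.

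In Sst only against insulin only cells, 1 of the 8 was higher and 2 were lower, where 18.2% of all genes were called, with a median of -0.12 against -0.0085 over all genes. Pcsk1 was at 55.7 and 55.9 CPM in Sst only cells (-3.03 ± 0.204, adjusted p = 4.34e-08), between the other groups. Pam was higher by 0.65 (adjusted p = 0.00362). Cpe was lower by 0.66 (adjusted p = 0.00584) on this normalised scale, while its share of all UMIs, 1885 and 1873 CPM of plain totals against 1934 and 1861, overlapped. The balance of the list in this contrast depended on the scaling. On plain totals, which were not tested, Pcsk2, Pcsk1n, Scg5, Pam and Dpp4 were all at higher values in Sst only than in insulin only cells in both libraries, such as 4782 and 4555 against 3182 and 3008 CPM for Pcsk2, and Pcsk1 was lower. In Sst only against Gcg only cells, Pcsk1 was higher by 4.46 and Pcsk2, Pcsk1n, Scg5 and Cpe were lower by 0.81 to 1.12, where 15.1% of all genes were called, with a median of -0.86 against -0.011 over all genes.

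Genes most like each member were ranked by Pearson's r across all cells of a library, on log2(UMIs per 10000 + 1), among 13068 genes, taking the lower of the 2 libraries. Pyy was closest to Ppy, with 0.76 (n = 735) and 0.80 (n = 748). After it came Tspan8, a tetraspanin, with 0.65 and 0.67, Folr1, a folate receptor, with 0.49 and 0.53, Calb1, a calcium-binding protein, with 0.47 and 0.54, and Etv1, a transcription factor, with 0.47 and 0.54. For Pyy they were Ppy, Cltrn with 0.70 and 0.70, Etv1 with 0.69 and 0.74, Gpx3, an extracellular glutathione peroxidase, with 0.67 and 0.70, and Resp18 with 0.63 and 0.66. Etv1 and Tspan8 differed in their levels over the groups. Etv1 was at 464 and 467 CPM of plain UMI totals in Gcg only cells, 406 and 422 in Sst only cells and 24.1 and 25.9 in insulin only cells. Tspan8 was at 39.7 and 47.5 in Gcg only cells, near the 54.4 and 61.5 of non-endocrine cells, but at 286 and 319 in Sst only cells and 471 and 405 in granule-marked cells. For Npy, the highest was Ctnna2 with 0.13 and 0.20, which in counts this sparse is no finding.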

How the data were processed

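Single-cell RNA was measured in 2 libraries of mouse islet cells. The authors deposited 1 table of counts per library, whose values are deduplicated UMIs by gene and barcode. Per the methods, Cytonaut kept barcodes above a knee found with UMI-tools and aligned reads to exons alone on GRCm38, so shallow barcodes and intronic reads are left out. All cells passed a filter of at least 200 genes and at most 20% mitochondrial UMIs.

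Hormone groups used 1% of UMIs. Doublets were called with Scrublet in scanpy 1.11.5 (8 in each library) and kept. Shares carry 95% exact Clopper-Pearson intervals, and a count of 0 the limit of 3 counts, both for counting error only. UMIs were summed over groups with at least 10 cells in each library, giving 14 sums of 375845 to 5722788 UMIs in 7 groups. Tests used edgeR 4.0.16 (R 4.3.3, TMM, filterByExpr, quasi-likelihood, threshold 0.05). They were also run on counts simulated from the fitted data, with results not given here. SE is the log2 fold change over the root of F. DESeq2 1.42.0, other thresholds, scalings and filters, and the library as a block were alternatives. Sums of the same library share its preparation, so the library number pairs them by construction. Deviations from group means correlated at -0.15 to 0.18 (median 0.0019) over 21 pairs of groups.

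Named genes were the 3 members, 5 receptors, 8 genes of peptide processing and breakdown, and the 5 genes most like each member among those with a UMI in at least 5% of cells of each library. Members and lists were chosen with earlier results of these data known.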

Additional observations from a re-analysis of the deposited data

How the results depend on the processing

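Of 84 recomputed differences each of Ppy and Pyy, 0 and 0 changed direction. Of 76 of Npy, 2 did with both libraries kept and another 2, not called, without library 2. Ppy in Sst only against Gcg only cells was 0.87 (adjusted p = 0.108), 0.26 (0.506), 0.16 (0.821) and 0.59 (0.0535) on the log2 scale with a hormone threshold of 0.5%, with one of 2%, without the 3 highest cells of each sum and with DESeq2, and was called in none of these. Npy in Sst only against insulin only cells was -5.96 (0.0684) with the 2% threshold and -6.17 (0.0667) with DESeq2, not called in either. Npy reversed to 0.039 in Sst only against non-endocrine cells with the replicate block, where it was not called in any case, and to -0.88 in granule-marked against non-endocrine cells without the pair of cells with most Npy, an alternative chosen after seeing the data. The replicate block changed no call of a member. Adjusted p-values of the unfiltered fit were far lower (1.53e-25 for Ppy in Sst only against Gcg only cells, with an SE of 0.048 in place of 0.169). The cause was not tested. With the 3 highest Npy cells of each sum left out, Npy had no value.

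With 1 library left out at a time there were no residual degrees of freedom and no test. Against non-endocrine cells, the differences ran from 3.48 to 3.68 (Ppy) and 3.34 to 3.64 (Pyy) in insulin only cells, 5.83 to 6.09 and 6.63 to 6.86 in Gcg only cells, 6.10 to 6.88 and 6.69 to 7.25 in Sst only cells, and 9.38 to 9.42 and 8.34 to 8.67 in granule-marked cells. For Npy they ran from 4.82 to 9.67 in insulin only, -1.99 to 3.02 in Gcg only and -0.67 to 3.19 in Sst only cells, where 0 UMIs in non-endocrine cells of library 1 make the fitted value depend on the prior count. Granule-marked Npy had no value without library 2.

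The share of cells at the Ppy threshold was 6.65%, 36.9%, 81.9% and 92.6% in insulin only, Gcg only, Sst only and granule-marked cells at 0.5% Ppy, and 3.58%, 22.0% and 51.2% in the first 3 groups at 2%. In granule-marked cells it was 91.3% and 92.2% with hormone thresholds of 0.5% and 2%, and 93.1% without called doublets. In place of the mean of the medians of both libraries, summed UMIs gave Ppy of 0.496%, 3.25%, 5.84% and 32.3% and Pyy of 0.0776%, 0.938%, 1.34% and 2.96% in the same order. Without insulin, Gcg and Sst in the denominator, median Ppy was 0.119%, 0.258% and 35.9% in insulin only, Gcg only and granule-marked cells, and median Pyy was 0.0194%, 0.622% and 1.27% in insulin only, Gcg only and Sst only cells. The share of all cells with both Ppy and Pyy was 60.2%, 32.1% and 21.8% at 0.05%, 0.5% and 1%, and 51.7% after thinning to 4000 UMIs. At 0.05%, 75% of non-endocrine cells reached the level for Ppy and 2.91% for Pyy.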
